A study of Trametes versicolor with 3 samples.

Results

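Transcript levels of Trametes versicolor grown on poplar medium were compared with those of the same fungus grown on PDA, and the gene models that form the comparison were those with at least 1 RPKM (reads assigned to a gene model, scaled to its length and to the library's total) in either library. This rule kept 10506 of the 11480 gene models that had a read in any library of the series. A gene absent from a library's table was given 0 reads. Just inside the threshold lay Trave1_49971, with 0.73688 RPKM on PDA and 1.00044 on poplar, and just outside lay Trave1_43954, with 0.99930 and 0.50877.

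The series holds 3 libraries of mycelium, the vegetative hyphae, each collected after 9 days at 25 °C when the mat had reached 4 cm. The fungus was strain CICC 14001, a culture collection isolate, whereas the proteins that the files match the gene models to are mostly those of strain FP-101664 SS1. PDA usually stands for potato dextrose agar, a rich culture medium with starch and glucose. The poplar medium is described no further than by the wood's name, and the remaining library came from a medium with glucose as carbon source. The growth protocol names PDA for every sample, which the source names contradict, and the latter set the groups here. Whether the media labels are right was not tested. Cellulases, known for repression by free sugar, had their highest summed level in the library labelled glucose, 23120.1 RPKM against 11684 in the library labelled poplar, so every poplar value below is that of the library with that label. Each medium has 1 library, so no difference here has a replicate check and no p-value was computed. All values describe these libraries.

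White-rot fungi such as T. versicolor break down all polymers of wood. Secreted heme peroxidases oxidise lignin with hydrogen peroxide that oxidases supply, lytic polysaccharide monooxygenases (LPMOs) and cellobiose dehydrogenase loosen cellulose by oxidation, and cellobiohydrolases, endoglucanases and beta-glucosidases hydrolyse it to glucose. Xylanases, esterases and pectinases remove the matrix polysaccharides. Many of these genes are known to be repressed when free sugar is plentiful.

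Uniquely assigned reads came to 2.85 M on PDA, 2.80 M on poplar and 2.68 M on glucose. For a model of 1 kb, a single read came to 0.351 RPKM on PDA and to 0.357 on poplar. A gene was counted as higher or lower in the poplar library when RPKM plus 1 differed at least 2-fold. Log2 ratios are of RPKM plus 1, poplar over PDA, and understate the change of genes with few reads. Folds are plain RPKM ratios, and the range in parentheses is the exact 95% interval for counting error alone. Where a pair of values is joined by and with no medium named, the PDA value comes first. The gene models are those of the fungus, and 0 matched the wording searched for plant photosynthesis genes under the list rule used throughout. With every KEGG name searched as well, 20 measured genes matched, of which 1 was higher. In RNA from whole mycelium, fewer hyphae of a kind and less RNA per hypha cannot be told apart.

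Of the 10506 measured genes, 1136 were higher in the poplar library, or 10.8%, and 537 were lower, or 5.11%. The median log2 ratio was 0.09. Counting error alone left no ratio of 1 within the interval of 822 higher genes, 7.82% of the measured, and of 369 lower genes, 3.51%. At 4-fold, 219 genes were higher and 97 lower, or 2.08% and 0.923%. At 8-fold, 61 were higher and 17 lower, or 0.581% and 0.162%. The excess of higher genes lay at low and middle levels. Below a mean of 10 RPKM, 625 of 3829 genes were higher and 262 lower, whereas of the 157 genes with a mean of at least 1000 RPKM, 9 were higher and 11 lower. Of the 1136 genes higher in the poplar library than on PDA, 345 peaked on glucose and 791 on poplar. Of the 537 lower genes, 408 peaked on PDA and 129 on glucose.

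**Figure D1:**
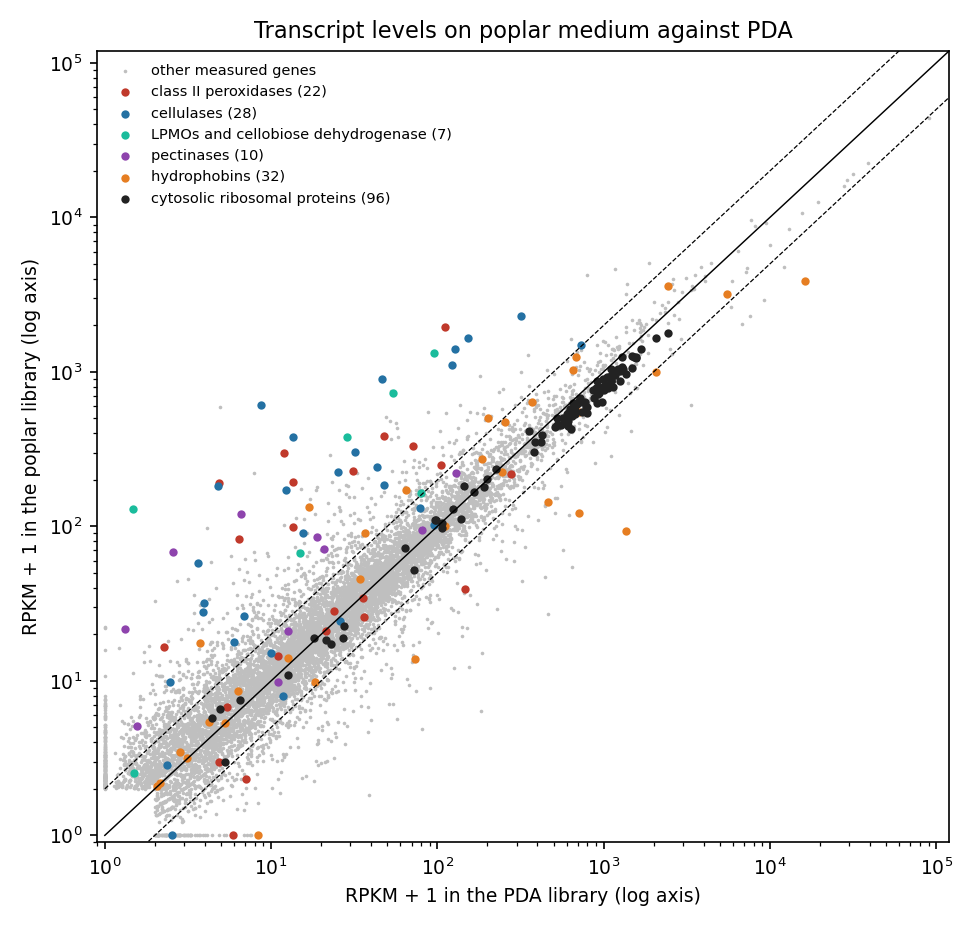
RPKM plus 1 of the 10506 measured gene models in the PDA library (x axis, log scale) and the poplar library (y axis, log scale), with members of 6 gene lists coloured and their numbers in parentheses. The solid line marks equal levels and the dashed lines a 2-fold difference; 21 of the 28 cellulases lie above the upper dashed line, while the 96 ribosomal protein genes lie between the dashed lines.

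Genes were grouped by the wording of their annotation, and the share of each group's members that was higher is to be read against 10.8% of all measured genes, and the share that was lower against 5.11%. Across the 9 groups for lignin and polysaccharide breakdown, which hold 137 measured genes, 73 were higher in the poplar library and 8 lower. Together they took 2.38% of the reads in the PDA library, with an exact 95% binomial interval of 2.36% to 2.40%, and 4.24% (4.21% to 4.26%) in the poplar library. The polysaccharide enzymes among them went from 0.504% to 2.23% of reads. The peroxidases, laccases and oxidases took similar shares, 1.87% and 2.01%, although 22 of their 61 measured genes were higher and 5 lower.

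**Figure D2:**
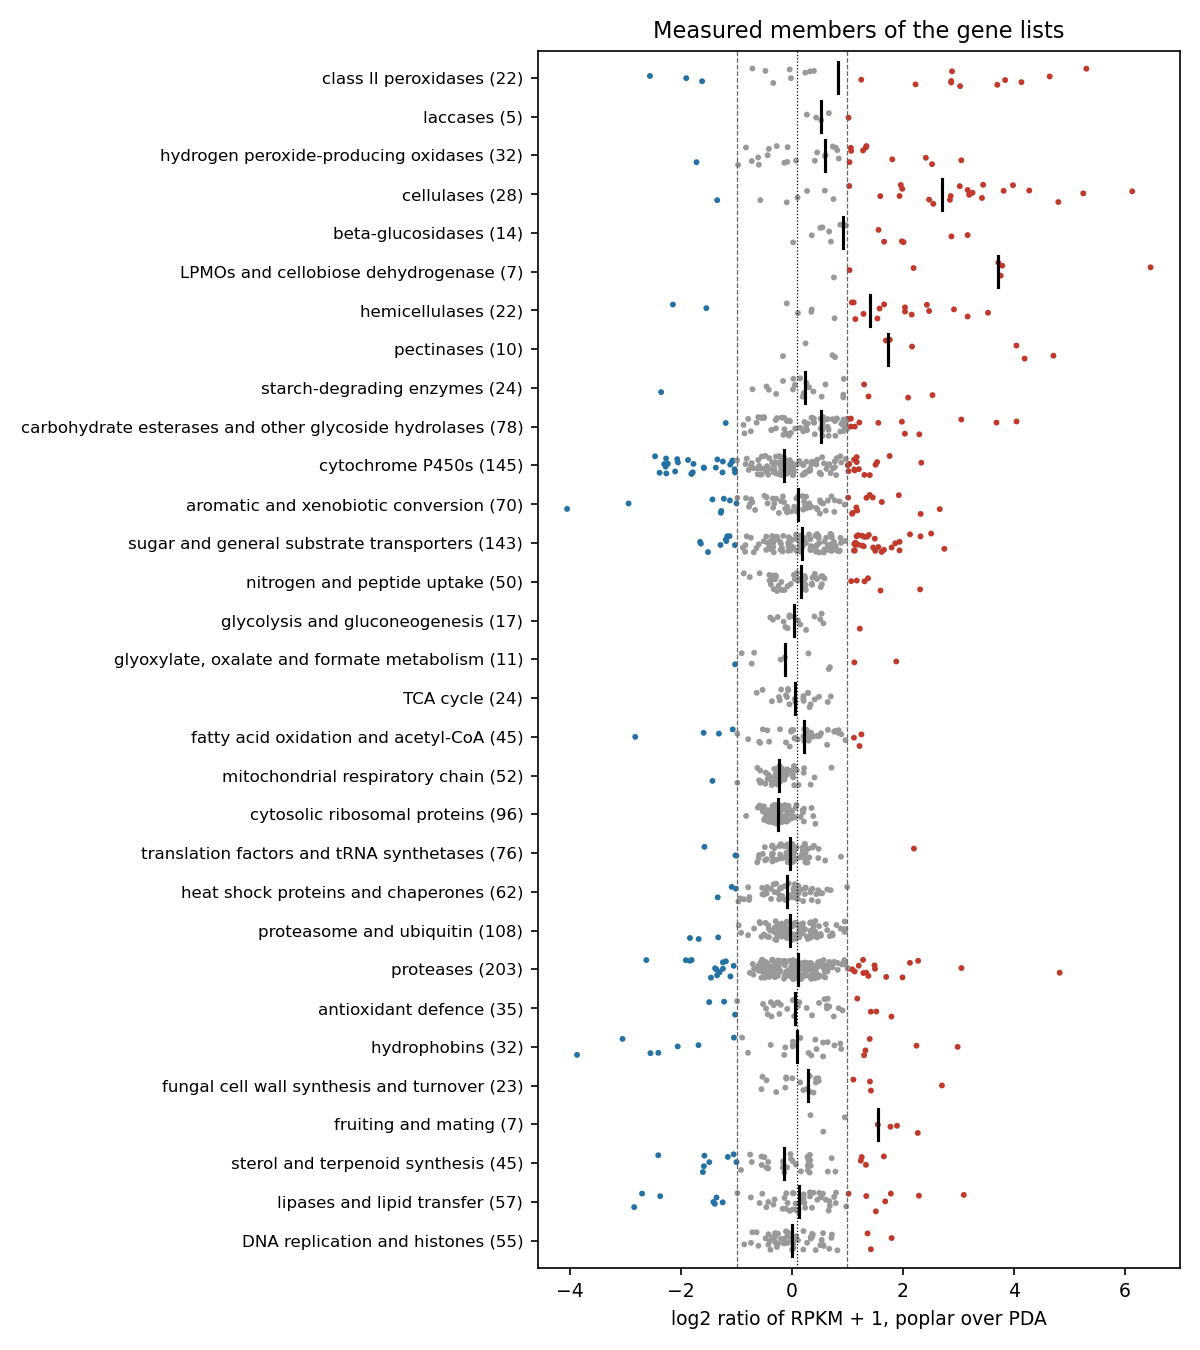
Log2 ratio of RPKM plus 1, poplar over PDA, for each measured member of 31 gene lists, with the number of members in parentheses. Red points are at least 2-fold higher in the poplar library, blue points at least 2-fold lower, black bars are list medians and the dotted line is the median of all measured genes, 0.09; the cellulase, LPMO, pectinase and hemicellulase medians lie above 1, and no ribosomal protein gene passes either dashed line.

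Class II peroxidases, the heme enzymes that attack lignin, were split by name. Of the 22 measured members, 11 were higher in the poplar library and 3 lower. The median log2 ratio was 0.82 against 0.09 for all genes. It was 2.55 over the 18 members with at least 10 RPKM and 0.40 over all 23 with no filter. The summed level went from 973 RPKM on PDA to 4425 on poplar. All but 1 of the 11 genes named lignin peroxidase or ligninase were higher, whereas of 9 named manganese peroxidase 1 was higher and 2 were lower. Lignin peroxidases oxidise non-phenolic lignin units directly, while manganese peroxidases act through chelated manganese ions.

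Ligninase C, Trave1_115214, measured 111 RPKM on PDA, 1965 on poplar and 553 on glucose. It was the most abundant class II transcript on poplar, followed by the lignin peroxidase Trave1_134001, which measured 46.4 RPKM on PDA and 387 on poplar and was 8.32-fold higher (6.998 to 9.96). The lignin peroxidases Trave1_134927 and Trave1_134520 were both higher on poplar, by 7.59-fold (6.12 to 9.52) and 7.82-fold (5.61 to 11.2). Isozyme LP7, Trave1_43559, measured 70.3 RPKM on PDA, 333 on poplar and 562 on glucose, so its level on poplar lay between those of the other media. The lignin peroxidase isozyme Trave1_43846 had 17 reads on PDA, 11 on glucose and 254 on poplar, and Trave1_52603 had 40, 37 and 605. Both were thus near the same low level on PDA and glucose and higher on poplar.

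The exception among the lignin peroxidases was Trave1_43848, the most abundant class II transcript on PDA. It measured 277 RPKM on PDA, 219 on poplar and 41.3 on glucose, and the poplar level was 1.27-fold lower (1.14 to 1.40). Of the manganese peroxidases, Trave1_131350 alone was higher on poplar, at 248 against 104 RPKM. The pair of lower ones had few reads. Trave1_51721 had 19 reads on PDA and 4 on poplar, and Trave1_74449 had 15 and 0, which makes it at least 4.91-fold lower with the poplar count set to a floor of 3 reads. The manganese-repressed peroxidase Trave1_26509 measured 146 RPKM on PDA, 38.2 on poplar and 367 on glucose and was 3.82-fold lower (3.11 to 4.72). The versatile peroxidase Trave1_74865, of a kind that combines both activities, had 12 reads on PDA and 6 on poplar, with an interval that included no difference. Reads were counted only where they mapped uniquely, which leaves the levels of near-identical peroxidase copies uncertain.

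**Figure D3:**
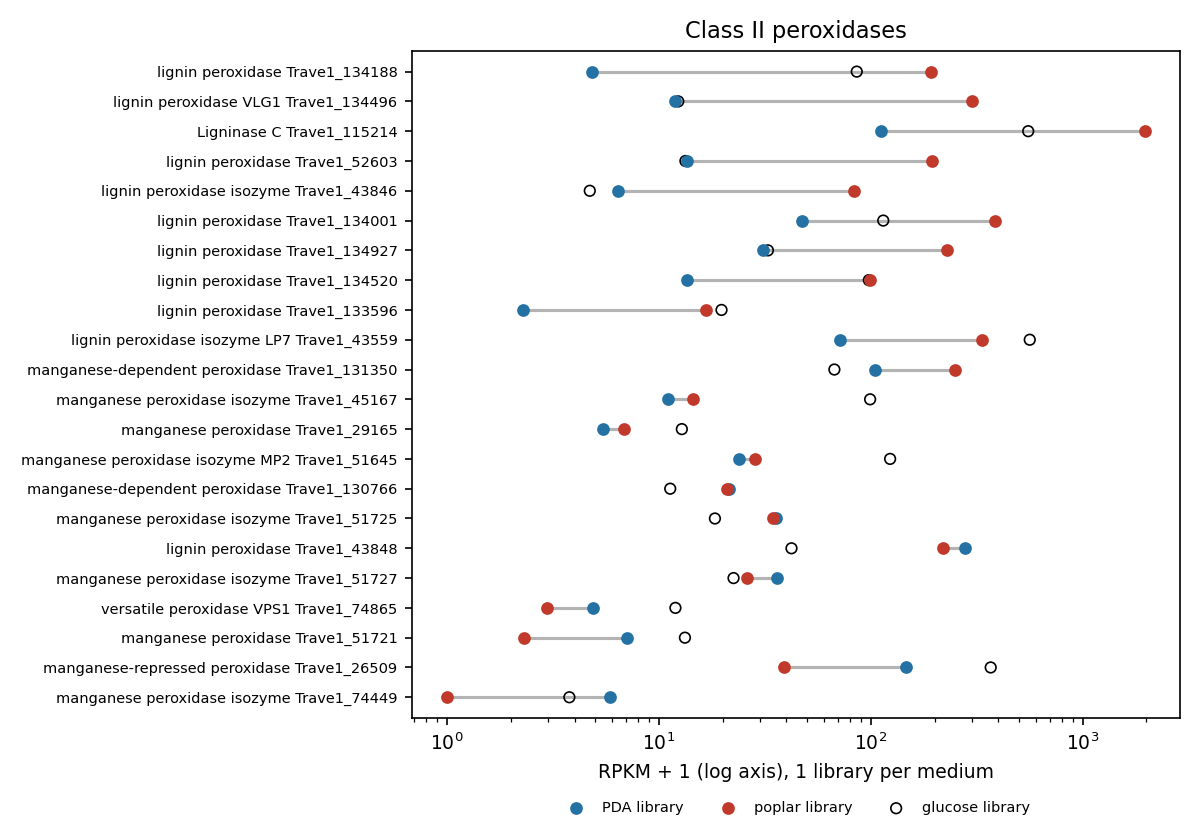
RPKM plus 1 (x axis, log scale) of the 22 measured class II peroxidases in the PDA library (blue), with poplar in red and glucose as open circles, ordered by the poplar to PDA ratio. The 10 lignin peroxidases at the top lie 4-fold or more to the right on poplar, and most manganese peroxidases lie close together on both media.

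The laccases, copper oxidases of phenols, differed little, with 1 of 5 higher and a median log2 ratio of 0.52. Laccase B, Trave1_138531, was the most abundant, at 57 RPKM on PDA and 77.5 on poplar. Laccase 5, Trave1_146502, was 2.11-fold higher (1.51 to 2.99), a difference that fell short of 2-fold on the RPKM plus 1 scale under each of the 3 other scalings tried. The Dyp-type peroxidase Trave1_49144, a heme peroxidase of a separate family, went the other way. It measured 45.1 RPKM on PDA, 10.7 on poplar and 13.97 on glucose and was 4.22-fold lower (3.02 to 5.998). The chloroperoxidase-like gene Trave1_24055 measured 186 RPKM on PDA and 109.7 on poplar, short of 2-fold.

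Among the oxidases that can supply hydrogen peroxide, the gene with the highest level differed between the media. Pyranose 2-oxidase, Trave1_174991, which oxidises glucose and other sugars, led on PDA and measured 7639 RPKM on PDA, 2316 on poplar and 992 on glucose. On poplar the leading gene was the alcohol oxidase Trave1_144880, which measured 795 RPKM on PDA, 4233 on poplar and 2002 on glucose and was 5.33-fold higher (5.16 to 5.50). Of the 32 measured members, 10 were higher and 1 lower. Their log2 ratios had a median of 0.60. The single lower call was pyranose 2-oxidase. Without it, the summed level of the others was 1560.3 RPKM on PDA and 5536 on poplar. The list rests on wording. Trave1_123055, Trave1_151572 and Trave1_158539, described as galactose oxidase, carry the KEGG name of a protein phosphatase. None of them reached 2-fold, and whether they are oxidases was not tested.

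Glyoxal oxidases are copper radical enzymes of wood decay. Of the 4 genes with that name, 3 were higher, Trave1_118536 at 27.1 RPKM on PDA and 161 on poplar, Trave1_116399 at 18.99 and 68.98, and Trave1_115826, which had 6 and 17 reads. The call of Trave1_115826 ended under median-of-ratios and TMM scaling, at log2 ratios of 0.99 and 0.97. A wider set of 9, picked by the KEGG name galactose oxidase, gave 4 higher calls and 1 lower. Its summed level went from 1979 RPKM on PDA to 1612 on poplar. The lower call was Trave1_63109, a DUF1929-domain protein outside the oxidase list. It measured 647 RPKM on PDA, 53.5 on poplar and 76.4 on glucose, and was 12.1-fold lower (10.7 to 13.7). Whether it is an oxidase was not tested. The GMC oxidoreductase Trave1_163334, of the flavoprotein family that includes aryl-alcohol and alcohol oxidases, was 9.64-fold higher (6.52 to 14.8). It measured 5.43 RPKM on PDA, 52.3 on poplar and 7.43 on glucose, and was thus low on PDA and on glucose. A further alcohol oxidase-like gene, Trave1_167427, was 2.52-fold higher (2.32 to 2.74), at 376 against 149 RPKM.

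Cellulase transcripts had the highest median ratio of the groups with more than 10 measured members. Of 28 measured cellulases, 21 were higher on poplar and 1 was lower. Their median log2 ratio was 2.70, and their summed level was 1929 RPKM on PDA, 11684 on poplar and 23120.1 on glucose. Of the 21 higher genes, 15 peaked on glucose and 6 on poplar.

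Cellobiohydrolase I, which works along cellulose chains from their reducing ends, was represented by 4 genes, and all were higher. Trave1_112433 was the most abundant cellulase transcript in the poplar library and measured 318 RPKM on PDA, 2317 on poplar and 6288 on glucose. It was 7.28-fold higher (6.86 to 7.73), the smallest difference of the 4. Trave1_111060 had 30 reads on PDA and 2331 on poplar, the largest. Trave1_124636 measured 45.2 RPKM on PDA, 893 on poplar and 313 on glucose, the only cellobiohydrolase I gene with its highest level on poplar. Trave1_126211 was 15.2-fold higher (11.2 to 21.2). Cellobiohydrolase II, which attacks the other chain end, was represented by Trave1_64096, at 153 RPKM on PDA and 1646 on poplar, 10.8-fold (9.92 to 11.8) higher.

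Endoglucanases cut within the chains. The gene Trave1_33326, which the KEGG names call an endoglucanase, was the most abundant of them to differ by more than 4-fold, with 127 RPKM on PDA and 1396 on poplar, 10.97-fold (9.89 to 12.2) higher. The endoglucanase V-like gene Trave1_168288 measured 12.5 and 376 RPKM and was 29.99-fold higher (19.6 to 48.2). The endoglucanase Trave1_150878 was 9.81-fold higher (7.997 to 12.2), at 30.8 and 302 RPKM. An endo-beta-1,4-glucanase, Trave1_34218, had 8 reads on PDA, 19 on glucose and 168 on poplar, so its level stood apart on poplar. The related gene Trave1_39490 measured 8.99 and 14.1 RPKM and did not reach 2-fold. The cellulose-growth-specific proteins Trave1_143649 and Trave1_43328 were both higher on poplar, by 9.21-fold (8.22 to 10.4) and 9.33-fold (4.03 to 26.5). Their description states no activity, and they were counted as cellulases by wording alone. Whether they are endoglucanases or LPMOs was not tested.

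A few cellulases were abundant on PDA as well. Trave1_115008, an endoglucanase by its KEGG name, measured 730.5 RPKM on PDA, the highest of the list there, and 1494 on poplar, and was 2.04-fold higher (1.94 to 2.16). Under median-of-ratios and TMM scaling Trave1_115008 fell short of 2-fold, with log2 ratios of 0.96 and 0.94. Trave1_61586, with the same KEGG name, measured 94.1 and 101 RPKM. The single lower call, Trave1_81522, rested on 3 reads on PDA and 0 on poplar, a level at the floor of 3 reads, so no fold is given.

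LPMOs are listed under their older name, glycoside hydrolase family 61. The 6 measured genes with that name and cellobiose dehydrogenase formed a list of 7, of which 6 were higher on poplar and 0 lower. Genes without that name were not counted as LPMOs. The list's median was 3.72 on the log2 scale against 0.09 for all genes. All 6 higher members peaked on glucose. The family 61 gene with the highest level on both media was Trave1_162999, which measured 94.96 RPKM on PDA, 1326 on poplar and 2983 on glucose. Trave1_45462 was 13.6-fold higher (10.4 to 18.1), at 27.8 and 378 RPKM. Trave1_34454 was 2.07-fold higher (1.72 to 2.49), the smallest difference among the higher LPMOs, and it measured 1185 RPKM in the glucose library. Its call ended under median-of-ratios and TMM scaling, at log2 ratios of 0.97 and 0.94, which left 5 higher members. Trave1_40525 had 1 read on PDA and 3 on poplar and was close to undetected on both. Cellobiose dehydrogenase, Trave1_73866, which passes electrons to LPMOs, measured 13.8 RPKM on PDA, 66.7 on poplar and 169.8 on glucose, and was 4.82-fold higher (3.84 to 6.12).

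Beta-glucosidases, which split cellobiose to glucose, differed less. Of 14 measured members, 6 were higher and 0 lower. On the log2 scale their median ratio was 0.92. The most abundant, Trave1_55904, measured 241 RPKM on PDA, 352 on poplar and 87.2 on glucose, and was 1.46-fold higher (1.37 to 1.57). The beta-glucosidases 1A, Trave1_171462, and 1B, Trave1_136522, were both higher on poplar, by 4.22-fold (3.19 to 5.65) and 3.28-fold (2.55 to 4.27). The family 3 gene Trave1_68149, a xylosidase by its KEGG name, measured 13.5 RPKM on PDA and 56.02 on poplar.

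**Figure D4:**
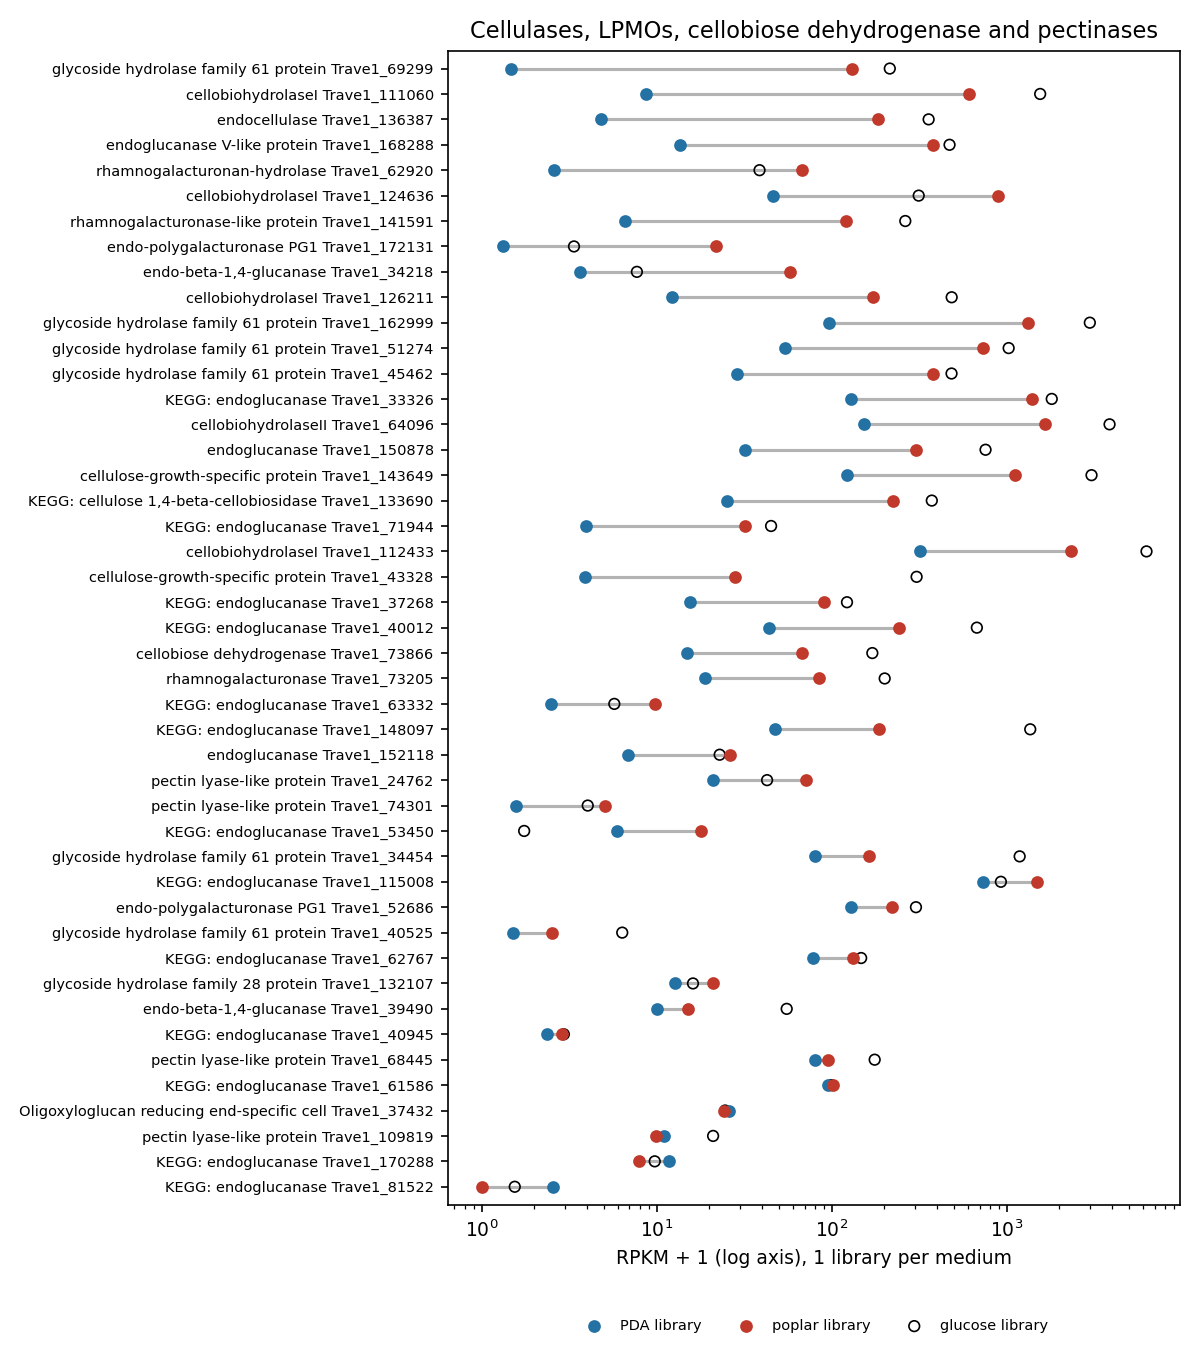
RPKM plus 1 (x axis, log scale) of the 45 measured cellulases, LPMOs, cellobiose dehydrogenase and pectinases in the PDA library (blue), with poplar in red and glucose as open circles, ordered by the poplar to PDA ratio. For most genes the poplar level lies to the right of the PDA level, and for many the glucose level lies further right.

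Of 22 measured hemicellulases, 15 were higher on poplar and 2 lower. The median log2 ratio was 1.41. The summed level was 1194 RPKM on PDA, 3491 on poplar and 6305 on glucose. This group shares 3 genes with the cellulases, 13.6% of its members and 10.7% of theirs. Xylanases cut the xylan backbone. Trave1_38372, endo-1,4-beta-xylanase C, measured 37.2 RPKM on PDA and 205 on poplar, and Trave1_154417 measured 8.92 and 39.7. Trave1_145163, a xylanase by its KEGG name, measured 14.04 RPKM on PDA, 173 on poplar and 1039 on glucose.

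Acetyl xylan esterases remove acetyl groups from xylan. Trave1_44147 measured 56.5 RPKM on PDA, 434 on poplar and 292 on glucose, and was 7.68-fold higher (6.55 to 9.05), and Trave1_162219 was 2.99-fold higher (2.29 to 3.94), at 23.6 and 70.6 RPKM. The arabinosidase Trave1_46924 was 4.22-fold higher (3.27 to 5.52), and the family 51 gene Trave1_60184, an arabinofuranosidase by its KEGG name, was 3.001-fold higher (2.74 to 3.29) at 351 RPKM on poplar. Alpha-galactosidase Trave1_159844 was the most abundant of the group on poplar, at 317 RPKM on PDA and 686 on poplar. Mannanase Trave1_162093 measured 62.5 and 199.8 RPKM.

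Esterases that release phenolic acids went both ways. Of 3 feruloyl esterase-like genes, 2 were higher, Trave1_51628 at 29.1 and 72.6 RPKM and Trave1_131548 with 4 and 33 reads. Trave1_126928, with 23 and 30 reads, did not reach 2-fold. The lower hemicellulases were both among 3 measured genes named tannase and feruloyl esterase. The other gene of that name, Trave1_123745, had 46 reads on PDA and 49 on poplar. Trave1_132016 had 47 reads on PDA and 7 on poplar, 6.59-fold (2.96 to 17.3) lower, and Trave1_74413 had 64 and 19, 3.31-fold (1.96 to 5.85) lower.

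Pectinases break down the polymer that glues plant cells together. Of 10 measured, 6 were higher and 0 lower. Their log2 ratios had a median of 1.73. All 3 genes named for rhamnogalacturonan were higher. Trave1_141591 measured 5.57 RPKM on PDA, 119 on poplar and 262 on glucose, and was 21.4-fold higher (13.8 to 34.9), and Trave1_73205 was 4.67-fold higher (3.58 to 6.17). The endo-polygalacturonase Trave1_172131 had 1 read on PDA, 7 on glucose and 64 on poplar, 65.2-fold (11.3 to 2614) higher. Its paralog by name, Trave1_52686, was more abundant and nearer to equal, at 129 and 221 RPKM.

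Starch is part of PDA, and of 24 measured starch-degrading enzymes 4 were higher on poplar and 1 lower. The list's median was 0.24 on the log2 scale. Glucoamylase Trave1_37627, which frees glucose from starch ends, measured 5.23 RPKM on PDA, 35.04 on poplar and 304 on glucose. Alpha-amylase Trave1_28425, the most abundant member on poplar, measured 348 and 662 RPKM and did not reach 2-fold. Of 78 carbohydrate esterases and other glycoside hydrolases outside these groups, 13 were higher and 1 lower, and their median log2 ratio was 0.52. The chitinase Trave1_37895, by its KEGG name, was the most abundant of them on poplar. It measured 1177 RPKM on PDA, 4648 on poplar and 5117 on glucose, and was 3.95-fold higher (3.80 to 4.11). The family 79 gene Trave1_128124 was 8.42-fold higher (7.48 to 9.50), and Trave1_67227, named only glycoside hydrolase, was 13.4-fold higher (10.8 to 16.8).

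Transporters of sugars and other substrates had 29 of 143 higher and 9 lower, or 20.3% and 6.29%. On the log2 scale their median ratio was 0.19. Nearly all are annotated only as general substrate transporters, so their sugars are not known from the files. Trave1_51916, a sugar and proton symporter by its KEGG name, measured 8.53 RPKM on PDA, 62.9 on poplar and 5.83 on glucose. Trave1_133273 was 5.17-fold higher (4.13 to 6.54) and Trave1_68027 6.31-fold higher (4.40 to 9.30). Lower on poplar was the monosaccharide transporter Trave1_149493, 3.17-fold (2.85 to 3.55) lower, at 302 RPKM on PDA and 95.2 on poplar. The most abundant member, Trave1_168780, measured 989.9 and 1050.2 RPKM.

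Of 50 measured genes of nitrogen and peptide uptake, 6 were higher and 0 lower, or 12% and 0% against 10.8% and 5.11% of all measured genes. All but 1 of the higher ones were oligopeptide transporters, among them Trave1_50428, 5.36-fold (3.95 to 7.40) higher, and Trave1_140510, at 81.3 RPKM on PDA and 248 on poplar. Of 203 measured proteases, 16 were higher and 14 lower, or 7.88% and 6.90% against the same 10.8% and 5.11%. Where the interval had to exclude 1, 14 were higher and 11 lower. Members of the same families lay on both sides. The metalloprotease Trave1_164315 had 21 reads on PDA and 666 on poplar and was 32.3-fold higher (20.95 to 52.5). The subtilisin-like gene Trave1_153777 was 8.63-fold higher (7.13 to 10.5), whereas the subtilisin-like gene Trave1_127041 was 3.54-fold lower (3.15 to 3.995). The family S53 protease Trave1_129910 was 3.82-fold lower (3.32 to 4.41), while Trave1_114117, of the same family, measured 103 and 414 RPKM.

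Cytochrome P450s, monooxygenases that white-rot fungi use on aromatic compounds and in secondary metabolism, were the largest group with more lower than higher members. Of 145 measured, 15 were higher and 26 lower, or 10.3% and 17.9%. Their median log2 ratio was −0.15, and the summed level was 12553 RPKM on PDA and 8251 on poplar. Of the 63 that KEGG places in family 4, subfamily F, 2 were higher and 12 lower, and of the other 82, 13 were higher and 14 lower. Trave1_140536 had the highest level of the group on PDA. It measured 1451 RPKM on PDA, 412 on poplar and 148 on glucose and was 3.52-fold lower (3.34 to 3.72). Trave1_55901 measured 616 RPKM on PDA and 117 on poplar, and Trave1_41840 measured 173 and 30.4. Trave1_43554, named after a gene inducible by polycyclic aromatic hydrocarbons, was 5.14-fold lower (4.09 to 6.51). Higher on poplar were Trave1_121894, 5.69-fold (3.76 to 8.93), and Trave1_129481, 2.93-fold (2.31 to 3.73).

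Enzymes that convert aromatic compounds and xenobiotics numbered 70, with 12 higher on poplar and 8 lower. These counts depend on the settings, with 8 and 4 where the interval had to exclude 1, 3 and 3 with a pseudocount of 5 RPKM, and 9 and 1 by descriptions alone. Trave1_63034, described as an aromatic compound dioxygenase and named catechol 1,2-dioxygenase by KEGG, a ring-cleaving enzyme, had 7 reads on PDA and 59 on poplar, 8.58-fold (3.92 to 22.3) higher. The phenol 2-monooxygenase genes, by KEGG name, went both ways, with Trave1_47905 5.33-fold higher (4.03 to 7.15) and Trave1_123673 8.81-fold lower (6.06 to 13.2). A gene with a glutathione S-transferase KEGG name, Trave1_34659, was 20.6-fold lower (10.2 to 48.6), at 80.2 RPKM on PDA and 3.89 on poplar.

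Hydrophobins, small amphipathic proteins that coat aerial hyphae, differed gene by gene. Of 32 measured, 5 were higher and 7 lower, and the median log2 ratio of 0.09 was close to that of all genes. The summed level nevertheless went from 32433 RPKM on PDA to 17534 on poplar, largely through Trave1_129761. That gene measured 16185 RPKM on PDA, 3881 on poplar and 5166 on glucose, and was 4.17-fold lower (4.02 to 4.32). Without it the sums were 16248 and 13653. Trave1_130087 was 14.8-fold lower (11.9 to 18.7), with 1267 reads on PDA and 84 on poplar, and hydrophobin-315, Trave1_50454, was 5.90-fold lower (4.83 to 7.27). Hydrophobin 2, Trave1_46553, had 15 reads on PDA, 9 on glucose and 123 on poplar, and Trave1_24774, likewise higher on poplar, measured 201 RPKM on PDA, 504 on poplar and 102 on glucose.

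Genes of sterol and terpenoid synthesis had 4 higher and 8 lower of 45 measured, or 2 and 6 where the interval had to exclude 1. The lower genes named here were picked for being lower and do not stand for a pathway. Hydroxymethylglutaryl-CoA synthase, Trave1_149073, measured 171 RPKM on PDA and 56.5 on poplar. Phosphomevalonate kinase, Trave1_34608, was 5.67-fold lower (4.22 to 7.74), and farnesyl-diphosphate synthase, Trave1_134849, was 3.02-fold lower (2.68 to 3.42), at 348 and 115.1 RPKM. Diphosphomevalonate decarboxylase, Trave1_160897, which follows phosphomevalonate kinase in the mevalonate route, had a log2 ratio of −0.09. The later enzyme delta-sterol C-methyltransferase, Trave1_74343, was the most abundant of the group and measured 1552 and 1127 RPKM, short of 2-fold. Of 57 measured lipases and lipid genes 7 were higher and 7 lower. Of 7 genes named carotenoid ester lipase 4 were higher, among them Trave1_48300, 9.24-fold (6.91 to 12.6) higher, while the delta12-fatty acid desaturase Trave1_28733 was 2.68-fold lower (2.47 to 2.90).

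**Figure D5:**
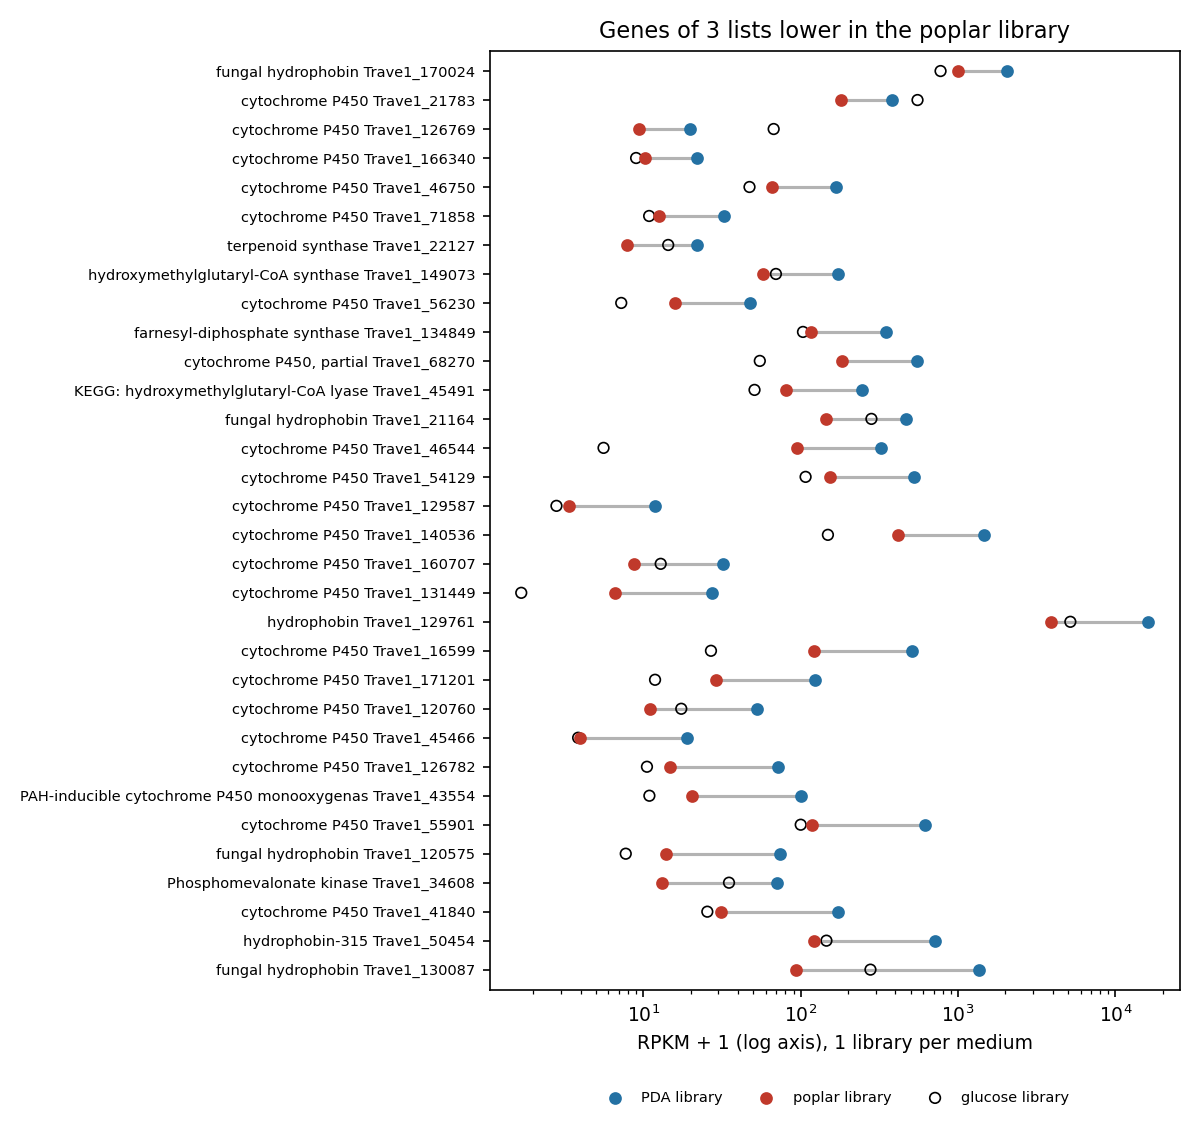
RPKM plus 1 (x axis, log scale) of the 32 hydrophobin, cytochrome P450 and sterol or terpenoid genes at least 2-fold lower in the poplar library with at least 10 RPKM on PDA, ordered by the ratio, with the PDA library in blue, the poplar library in red and the glucose library as open circles. The genes were selected for being lower; for most of them the glucose level lies on the same side of the PDA level as the poplar level.

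Genes found by wording for fruiting and mating that differed by 2-fold were all higher on poplar. Of 7 measured, 4 were higher and 0 lower. The median log2 ratio was 1.55. All 3 genes named pheromone, the lipopeptides by which compatible mycelia recognise each other, were higher. Trave1_45033 measured 112 RPKM on PDA, 544 on poplar and 128 on glucose, and was 4.85-fold higher (3.74 to 6.35), Trave1_49815 had 7 reads on PDA and 27 on poplar, and Trave1_49829 had 2 and 10. The pheromone receptor gene Trave1_73444 had 14 and 48 reads, and the more abundant receptor Trave1_170993 measured 105.4 and 156 RPKM, short of 2-fold. Fungal cell wall genes had 4 higher and 0 lower of 23, or 17.4% and 0%. Chitinase Trave1_132063 was 6.82-fold higher (5.01 to 9.48), whereas the more abundant chitinase Trave1_26719 measured 371 and 344 RPKM. Of 21 measured chitinases by description or KEGG name, 4 were higher and 0 lower. The abundant chitin synthase 2, Trave1_158352, measured 929 and 1158 RPKM.

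Genes of central metabolism and protein synthesis rarely passed 2-fold. Of 24 measured TCA cycle genes, 0 were higher or lower, and their median log2 ratio was 0.06. Glycolysis and gluconeogenesis had 1 higher of 17, Trave1_31151, an enolase-like gene that KEGG names galactonate dehydratase and not a glycolytic enzyme. Glyceraldehyde-3-phosphate dehydrogenase, Trave1_30332, measured 1178 and 1143 RPKM. All 96 measured ribosomal protein genes stayed within 2-fold, but their median of −0.26 lay below that of all genes, and 83 of them had a negative log2 ratio. Their share of reads was 3.65% on PDA and 3.05% on poplar. Of 52 respiratory chain genes 0 were higher and 1 lower, and their median log2 ratio was −0.23. The lower gene, Trave1_39244, carries the KEGG names of cytochrome c oxidase subunit 6a and of phenol 2-monooxygenase, and 9 of the 52, or 17.3%, are also on the aromatic and xenobiotic list. Translation factors and tRNA synthetases had 1 higher and 3 lower of 76, and the most abundant of them, elongation factor 3, Trave1_58240, was 1.52-fold lower (1.497 to 1.54), at 5926 and 3906 RPKM.

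Formate dehydrogenase Trave1_56661, which oxidises formate to carbon dioxide, stood out in the glyoxylate, oxalate and formate group, where 2 of 11 were higher and 1 lower. It measured 348 RPKM on PDA, 1284 on poplar and 1943 on glucose, and was 3.69-fold higher (3.46 to 3.94). Its paralog by name, Trave1_173372, was 2.11-fold lower (1.48 to 3.05). Isocitrate lyase Trave1_166513, of the glyoxylate cycle, measured 196 and 179.6 RPKM on PDA and poplar. Of 35 antioxidant genes 4 were higher and 3 lower. Catalase Trave1_152668 measured 1385 and 3709.7 RPKM, whereas manganese superoxide dismutase Trave1_175978 measured 4086 and 4196.

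The remaining groups are again to be read against 10.8% higher and 5.11% lower of all measured genes. Among 62 chaperone genes 0 were higher and 3 (4.84%) lower, and among 108 proteasome and ubiquitin genes 0 and 3 (2.78%). Genes of fatty acid oxidation and acetyl-CoA had 3 higher and 4 lower of 45, or 6.67% and 8.89%. Transcription factors, which the annotation names sparsely, had 5 higher and 1 lower of 54, or 9.26% and 1.85%. Where the interval had to exclude 1, these counts were 3 and 1. With descriptions alone they were 0 and 0 of 8, so the calls rest on KEGG names. Protein kinases had 9 and 2 of 119, or 7.56% and 1.68%. DNA replication and histone genes had 3 (5.45%) and 0 of 55, and 0 and 0 of 19 with descriptions alone. These shares cover genes found by wording, and 6026 of the 10506 measured genes had a description that names no function.

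Of the 1136 higher genes 746 were undescribed, and of the 537 lower genes 342, or 65.7% and 63.7%, against 57.4% of all measured genes. At 8-fold, 25 of 61 higher genes and 13 of 17 lower genes were undescribed. The highest log2 ratio, 6.91, belonged to Trave1_51756, a model of 357 bases with 4 reads on PDA, 11 on glucose and 590 on poplar. Trave1_46332 had 14, 8 and 425 reads. Trave1_44446 had 0 reads on PDA, 1 on glucose and 47 on poplar, at least 15.95-fold higher against a floor of 3 reads in the PDA library, and Trave1_23523 had 0, 5 and 36, at least 12.2-fold higher. These 2 were the only models with at least 20 reads on poplar and 0 on PDA, and no model had at least 20 reads on PDA and 0 on poplar.

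At the lower end, Trave1_48551 measured 182 RPKM on PDA, 5.34 on poplar and 8.93 on glucose and was 34.2-fold lower (18.4 to 71.9). Trave1_36789, a metallopeptidase by the enzyme number in its KEGG entry, measured 459.9 RPKM on PDA, 26.04 on poplar and 56.9 on glucose, and was 17.7-fold lower (14.8 to 21.2). Trave1_66138, which KEGG names a TEA domain protein, a kind of transcription factor, had 340 reads on PDA and 30 on poplar, and Trave1_66177, an endo-1,3(4)-beta-glucanase by KEGG name, was 9.70-fold lower (8.18 to 11.6). All 17 genes at least 8-fold lower on poplar had their highest level in the PDA library.

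The highest RPKM values came from short gene models without a clear function. The same 6 models led both libraries, among them Trave1_137702, described as a partial CHK1 checkpoint-like protein, with 90902 RPKM on PDA and 44262 on poplar. They were 150 to 366 bases long and together took 4.51% of reads on PDA, 2.51% on poplar and 3.94% on glucose. All 6 had log2 ratios between −1.04 and −0.63, so they were lower on poplar by similar factors. Because RPKM divides by all assigned reads, this share enters every other value, and its effect on the counts is given with the alternative scalings.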

How the data were processed

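Per the labels' protocols, mRNA of mycelium was captured on oligo(dT) beads, fragmented, primed at random for cDNA and read on an Illumina sequencer. The deposited tables of the authors give a count of uniquely assigned reads per gene model, its RPKM and the percent of the model covered by reads, per the file headers. Cufflinks 2.0.1 appears in the submitters' processing notes, its use unstated. For the aligner, genome build and strand the entry is: not given in the sources used here. Every RPKM was recomputed from the count, the model's coding length and the total. Gene names are the deposited best protein match and KEGG names. Genes joined 35 lists by the wording of the description, or by KEGG names where the description names no function. The members and lists were chosen with earlier results of these data known, and the pattern for pyranose oxidase was narrowed after its members were seen.

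The PDA and poplar columns were joined on the gene identifier with absent genes at 0, and log2 ratios were taken with a pseudocount of 1 RPKM. With 1 library per medium, no test was made. Counting intervals are exact 95% intervals of the ratio of reads. Only for folds given as at least was a count of 0 set to a floor of 3 reads. Log2 ratios, calls and intervals kept the count of 0. Reads have no molecular identifiers, so intervals and floors cover counting error only.

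Named genes were to be the 15 highest and 15 lowest log2 ratios with at least 10 RPKM, up to 4 called members of each list with the largest ratio and its 2 most abundant members, and each library's 10 genes of highest RPKM. Further members of the 9 lists for lignin and polysaccharide breakdown, other genes outside this rule and all groups by shorter wording, such as lignin peroxidases, were chosen after values were seen. Alternatives were other pseudocounts, filters, scalings and list memberships. Calculations used Python 3.11.15, pandas 2.3.3, scipy 1.17.1 and, for TMM factors, edgeR 4.0.16. The calling code was tested on simulated counts with counting error alone and 4-fold changes, none of them placed in genes with few reads. That test does not cover changes near 2-fold, genes with few reads or variation between cultures.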

Additional observations from a re-analysis of the deposited data

How the results depend on the processing

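No gene named by the rule and counted as higher or lower changed sign under the pseudocounts, scalings and filter settings tried. With a pseudocount of 5 RPKM, 505 genes were higher in the poplar library and 248 lower, with 1 class II peroxidase lower, 0 laccases higher, 6 hydrogen peroxide-producing oxidases higher and 0 cellulases lower. With at least 10 RPKM required, 617 genes were higher and 316 lower, with 1 class II peroxidase and 0 cellulases lower. A pseudocount of 0.1 gave 2 lower oxidases. Median-of-ratios scaling, TMM scaling and totals without the 6 highest models, the last chosen after seeing the data, each gave 0 higher laccases and 2 lower oxidases. Under the first 2 of these, higher cellulases numbered 20, higher oxidases 8 and higher members of the LPMO list 5, against 21, 10 and 6. The 3 scalings gave, in that order, 1027, 1010 and 1112 higher genes and 593, 613 and 572 lower ones. Where the interval had to exclude 1, 0 cellulases were lower. With descriptions alone, 12 cellulases were higher and 0 lower, since genes named by KEGG only drop out. With all KEGG names, 11 beta-glucosidases were higher and 1 lower, and 2 oxidases were lower. The cause of the other shifts was not tested. Of 1140 recomputed ratios of 190 named genes, 94 moved beyond their counting interval. No paired analysis was possible because each medium has 1 library, and for the same reason no library could be left out. Depth limits genes with few reads, whose intervals span several-fold.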

Other observations

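Further genes that differed between the libraries were picked out after their values were seen. The alcohol dehydrogenase Trave1_18643, which KEGG names S-(hydroxymethyl)glutathione dehydrogenase, the enzyme that oxidises the glutathione adduct of formaldehyde, measured 132 RPKM on PDA, 435 on poplar and 344 on glucose, and was 3.30-fold higher (2.96 to 3.68). Glycerol kinase Trave1_72306 was 3.34-fold higher (2.49 to 4.54), and the aquaglyceroporin-related genes Trave1_121564 and Trave1_43743 were both higher on poplar, by 3.24-fold (2.80 to 3.77) and 3.20-fold (2.94 to 3.50). A thiamine synthesis gene, Trave1_71787, was 6.68-fold higher (5.65 to 7.95), at 56.8 RPKM on PDA and 379.9 on poplar. Arabinogalactan endo-1,4-beta-galactosidase Trave1_143920 was 6.96-fold higher (5.42 to 9.04) and galactan 1,3-beta-galactosidase Trave1_146223 5.23-fold higher (4.15 to 6.66).

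Cerato-platanin, Trave1_116538, a secreted protein family known from fungi that meet plants, measured 51.3 RPKM on PDA, 755 on poplar and 321 on glucose, and was 14.7-fold higher (11.3 to 19.4). The immunomodulatory protein genes Trave1_166333 and Trave1_28605 were both higher on poplar, by 17.3-fold (6.46 to 65.3) and 3.48-fold (2.81 to 4.34). The aegerolysin Trave1_53190 and the erylysin B gene Trave1_53191, whose relatives in Pleurotus form pores together, were 3.35-fold (2.88 to 3.91) and 3.10-fold (2.61 to 3.68) lower. Their protein identifiers are consecutive. Of 5 measured O-methyltransferase genes, 2 were higher on poplar and 0 lower, and their median log2 ratio was 0.39. The higher ones were Trave1_28299, by 9.41-fold (7.62 to 11.7), and Trave1_34978, by 14.4-fold (7.58 to 30.6). Myo-inositol-1-phosphate synthase Trave1_154309 was 3.69-fold lower (3.35 to 4.08), aspartate kinase Trave1_152210 3.98-fold lower (3.23 to 4.95), and the pleiotropic drug resistance transporter Trave1_74952 4.34-fold lower (3.73 to 5.07). The heme peroxidase Trave1_157937, named prostaglandin-endoperoxide synthase by KEGG and outside the class II list, measured 866 RPKM on PDA, 349 on poplar and 263 on glucose.

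Genes with the same description, the word partial aside, were also counted together, for the 44 descriptions shared by at least 10 measured genes. NAD-P-binding proteins had 25 higher and 8 lower of 136, and alpha/beta-hydrolases 18 and 5 of 100, against 10.8% and 5.11% of all measured genes. HET-domain proteins, which act in recognition of foreign mycelia, had 8 higher and 10 lower of 68. Mitochondrial carriers had 0 higher and 0 lower of 29, and WD40 repeat-like proteins 0 and 2 of 63.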
